A study of Mus musculus with 15 samples.

Results

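The miR-148 and miR-152 family was followed in platelet-free plasma of male, wild-type C57BL/6J mice taken 24 h after surgery. Surgery was either sham (6 libraries) or cecal ligation and puncture (CLP; 9 libraries). CLP opens the gut to the abdominal cavity and models sepsis caused by many bacteria at once. The labels give neither the age of the mice nor whether each library is a separate animal, so p-values below measure the spread between libraries, which may be technical. The members were chosen by name: the 5 table entries mmu-miR-148a-3p, mmu-miR-148a-5p, mmu-miR-148b-3p, mmu-miR-148b-5p and mmu-miR-152-3p, of 1205 entries in all (mmu stands for Mus musculus). They were selected on the basis of earlier CLP-against-sham results from these same libraries, so every CLP-against-sham value below is a description with no test. All 5 passed the filter on low counts, as did 426 entries in total.

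A microRNA (miRNA) gene is transcribed into a hairpin, from which one strand of the stem (an arm, 5p or 3p) is usually loaded into an Argonaute protein and kept, while the other is mostly degraded. The loaded strand finds target mRNAs mainly by its seed, and strands with the same seed are grouped as a family because their predicted targets overlap. In miR-148a, miR-148b and miR-152 the 3p arm is the one usually kept. miR-148a-3p is abundant in liver and pancreas, and a family target described in other work is the DNA methyltransferase Dnmt1. miR-152 and miR-148b sit in introns of genes for zeta subunits of the COPI vesicle coat.

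The mature sequences are printed to show what the members share and where they differ, with the seed (bases 2 to 8 from the 5′ end) in capitals. They come from RefSeq on GRCm38.p6, in which all 5 members were found. miR-152-5p is no member but completes the third hairpin.
miR-148a-3p: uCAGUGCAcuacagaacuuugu
miR-148b-3p: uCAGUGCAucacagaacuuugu
miR-152-3p: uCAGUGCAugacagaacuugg
miR-148a-5p: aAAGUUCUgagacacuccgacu
miR-148b-5p: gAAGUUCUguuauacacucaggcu
miR-152-5p: uAGGUUCUgugauacacuccgacu

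The 3p members had the seed CAGUGCA and a 5′ U in common. Counted from 1 at the 5′ end, miR-148b-3p differed from miR-148a-3p by C9U and U10C and was identical at 20 of 22 bases. miR-152-3p is 1 base shorter and differed from miR-148a-3p by C9U, U10G and U20G. A mature sequence was found for 1003 of the 1205 table entries, and the others could not be searched. Among those 1003, no other entry had the 3p seed or the 5p seed AAGUUCU, which miR-148a-5p and miR-148b-5p share. In the same search, bases 3 to 8 of the 3p members recurred as bases 2 to 7 of miR-130a-3p, miR-130b-3p and miR-301a-3p. With so few differences between the 3p members, reads with errors at those bases could be assigned to a relative. The deposited counts of all 5 members were whole numbers in all 15 libraries, but reads could still have been divided between relatives.

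The 3 hairpins come from separate loci (GRCm38). Mir148a lies on chromosome 6 (51269812 to 51269910, minus strand) between annotated genes, 13622 bases from the nearest, the long noncoding RNA gene Gm32479. Mir148b lies on chromosome 15 (103285125 to 103285221, plus strand) in an intron of Copz1, on the same strand. Mir152 lies on chromosome 11 (96850393 to 96850465, plus strand) in an intron of Copz2, also on the same strand. Copz1 and Copz2 encode the COPI subunits named above.

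Library totals ran from 5274676 to 13576482 counts. Levels are CPM, the count of a miRNA as a share of its library's counts over the tested miRNAs, with library totals adjusted by TMM. CPM is a share of reads, so a higher value does not show a larger amount per volume of plasma. In plasma, more release from each cell, more releasing cells and slower clearance cannot be told apart. CLP 1 held far more of the hepatocyte miRNA miR-122-5p than any other library (79178 CPM, against a CLP median of 7125). The fixed marker lists were present in both groups, and none of their members was at 0 in every library. Red cell markers summed to between 157329 and 454592 CPM in sham and between 81481 and 377729 in CLP. Platelet and myeloid markers summed to between 4183 and 5521 CPM in sham and between 3756 and 6904 in CLP.

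After CLP the 3p members were higher and the 5p members were not. Over all tested miRNAs, the quasi-likelihood test of edgeR (Benjamini-Hochberg adjusted) called 25.4% higher, 21.8% lower and 47.2% in either direction. Of the 5 members, 3 were called higher (miR-148a-3p, miR-148b-3p and miR-152-3p), 1 was called lower (miR-148b-5p) and miR-148a-5p was not called. The median log2 fold change was 1.12 over the 5 members and 0.11 over all tested miRNAs. In 2 of the 5 members every CLP library lay above every sham library, a pattern held by 8.45% of all tested miRNAs. None had every CLP library below every sham library, the case for 11.3% of all tested.

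**Figure D1:**
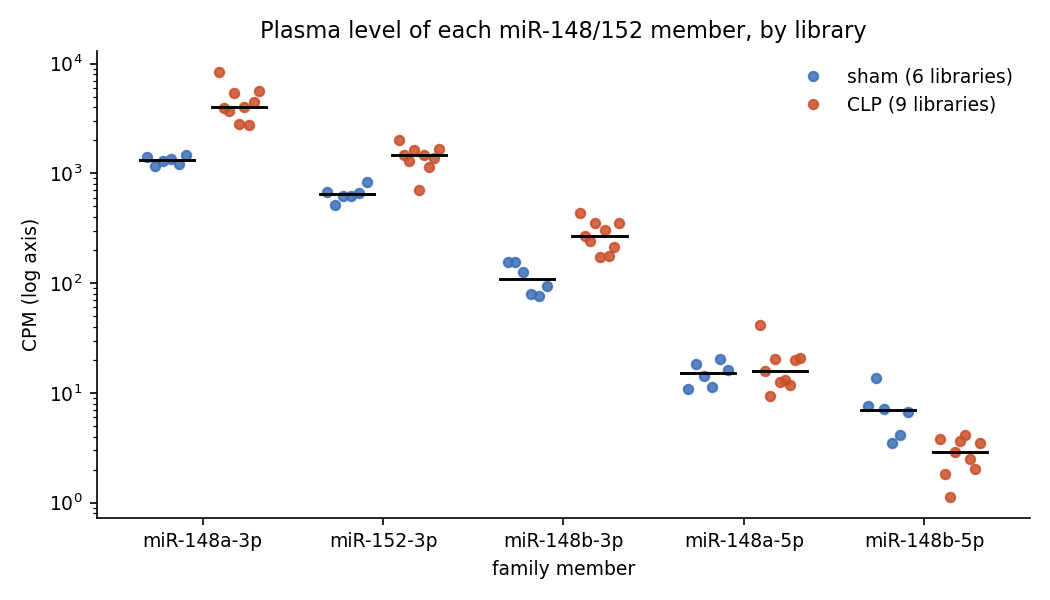
CPM of each member in each library on a log axis, with sham in blue, CLP in orange and the group median as a black line. miR-148a-3p and miR-148b-3p show no overlap between the groups, miR-152-3p overlaps through 1 CLP library, miR-148a-5p overlaps widely and miR-148b-5p is lower in most CLP libraries.

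miR-148a-3p was the most abundant member. In sham it ran from 1175 CPM in sham 2 through a median of 1334 to 1465 in sham 6. In CLP it ran from 2770 CPM in CLP 7 through a median of 4052 to 8397 in CLP 1. The lowest CLP library thus held more than the highest sham library, and CLP 1 stood above the next CLP library, at 5664 CPM. The sham libraries differed from each other by at most 1.25-fold, with a coefficient of variation (SD over mean) of 8.45%, against 37.9% in CLP. The means were 1326 ± 112 CPM (SD, n = 6) and 4581 ± 1736 (n = 9), and the fitted log2 fold change was 1.79 ± 0.24 (SE), or 3.45-fold, and 1.58 without CLP 1. By abundance, miR-148a-3p ranked between 41 and 47 in sham and between 22 and 35 in CLP.

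miR-152-3p, the Copz2 member, was next in level. It ran from 510 CPM in sham 2 through a median of 643 to 838 in sham 6, and from 704 CPM in CLP 5 through a median of 1472 to 2017 in CLP 1. CLP 5 fell inside the sham range, and the other 8 CLP libraries, which began at 1152 CPM, lay above it. Its means were 655 ± 107 CPM (SD, n = 6) and 1424 ± 368 (n = 9), with a log2 fold change of 1.12 ± 0.21 (SE), and 1.0005 without CLP 1.

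miR-148b-3p, the Copz1 member, was the least abundant 3p arm. It ran from 76.1 CPM in sham 5 through a median of 110 to 156 in sham 1, and from 172 CPM in CLP 5 through a median of 271 to 432 in CLP 1. The groups did not overlap, but the gap was narrow, from 156 to 172 CPM. Sham 1, 2 and 3 held 156, 156 and 125 CPM, above sham 4, 5 and 6 at 80.4, 76.1 and 94.3. Its means were 115 ± 36.4 CPM (SD, n = 6) and 280 ± 88.7 (n = 9), with a log2 fold change of 1.29 ± 0.25 (SE), and 1.13 without CLP 1.

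Of the 5p arms, which are mostly discarded in cells, miR-148a-5p stayed at similar levels in both groups. Sham libraries held between 10.9 and 20.6 CPM with a median of 15.3, and CLP libraries between 9.42 and 41.9 with a median of 15.7. All but CLP 1 and CLP 9 (41.9 and 20.8 CPM) lay inside or below the sham range. The log2 fold change was 0.26 ± 0.29 (SE), and -0.03 without CLP 1.

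miR-148b-5p was lower after CLP although the other arm of its hairpin was higher. It ran from 3.51 CPM in sham 4 through a median of 6.92 to 13.6 in sham 2, and from 1.13 CPM in CLP 3 through a median of 2.89 to 4.11 in CLP 6. In 6 of 9 CLP libraries it was below every sham library. The log2 fold change was -1.33 ± 0.34 (SE). These levels rest on few reads, between 21 and 106 counts per sham library and between 10 and 52 per CLP library. In CLP 2, 10 counts gave a level of 1.62 on the scale of unscaled CPM over the whole table, with an exact 95% binomial interval of 0.776 to 2.98, which covers counting error only.

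**Figure D2:**
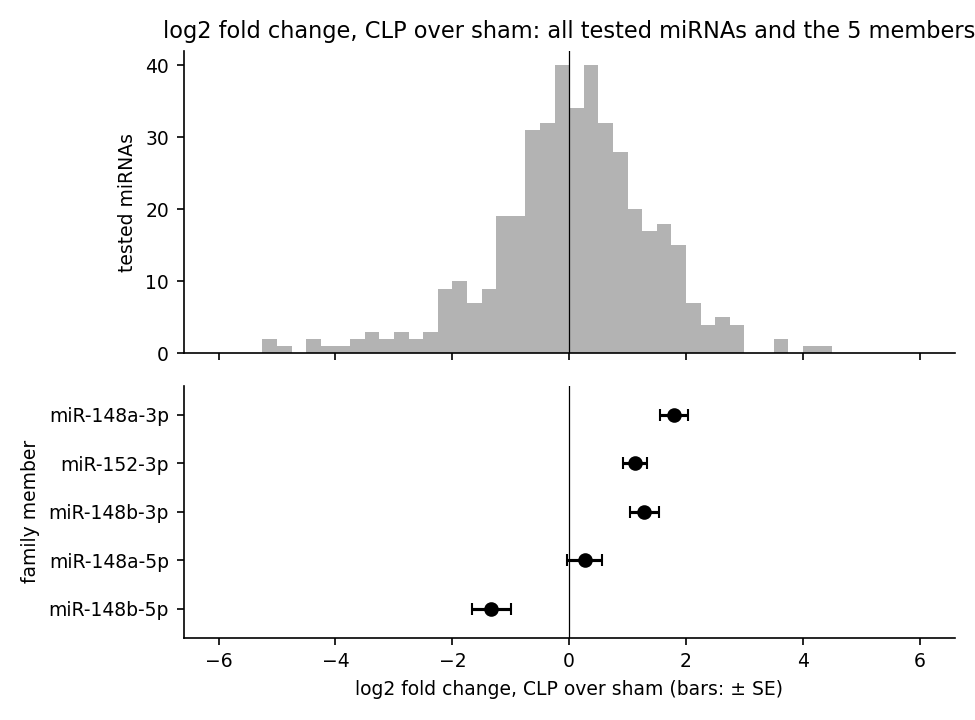
Upper panel, number of tested miRNAs in bins of log2 fold change of CLP over sham; lower panel, the 5 members with their standard errors as bars. The 3p members lie between 1.12 and 1.79, miR-148a-5p at 0.26 and miR-148b-5p at -1.33.

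The sizes of these differences varied with how base composition and scaling were treated. miR-148a-3p and miR-148b-3p are each 40.9% G and C, and miR-152-3p is 47.6%. With a linear GC trend removed from each library, the log2 fold changes were 1.44, 0.96 and 1.07 for miR-148a-3p, miR-148b-3p and miR-152-3p, and -1.62 for miR-148b-5p. These 4 members stayed called in the same direction in that fit. With scaling to library size and no TMM factor, the median over all tested miRNAs shifted from 0.11 to -0.12, and the members lay at 1.56, 1.06, 0.90, 0.04 and -1.53 in the order miR-148a-3p, miR-148b-3p, miR-152-3p, miR-148a-5p and miR-148b-5p. In that scaling 41.7% of all calls were higher, against 53.7% with TMM.

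The 3p to 5p ratio, taken within a library from raw counts with 0.5 added to each arm, does not depend on scaling between libraries. For miR-148a there were between 59.5 and 129 reads of the 3p arm per 5p read in sham, with a median of 90.3. In CLP there were between 200 and 393, with a median of 249. For miR-148b the ratio ran from 11.4 through a median of 17.7 to 22.4 in sham, and from 47.2 in CLP 5 through a median of 102 to 206 in CLP 3. Both hairpins had every CLP library above every sham library, where 10.8% of the 93 hairpins with both arms tested had this pattern.

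As a log2 mean, the miR-148a ratio stood at 6.47 ± 0.45 for sham (SD, n = 6) and at 8.01 ± 0.29 for CLP (n = 9), a 2.92-fold difference. That of miR-148b was 4.08 ± 0.36 in sham and 6.64 ± 0.62 in CLP, a 5.90-fold difference. For miR-152 it was 7.98 ± 1.29 and 9.70 ± 0.51, with sham 1, which held 4 counts of miR-152-5p, inside the CLP range. Few reads came from miR-152-5p itself (3.21 ± 2.18 CPM for sham, 1.77 ± 0.863 for CLP), and it was not called. All 3 hairpins were thus over 2-fold higher in this ratio, as were 18.3% of the 93 hairpins. The median change over the 93 was -0.00 on the log2 scale, with quartiles of -0.95 and 0.81. miR-148b, miR-152 and miR-148a took ranks 8, 12 and 14 from the top. The share of the members' reads that came from the 5p arms was between 0.716% and 1.70% in sham and between 0.201% and 0.432% in CLP.

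**Figure D3:**
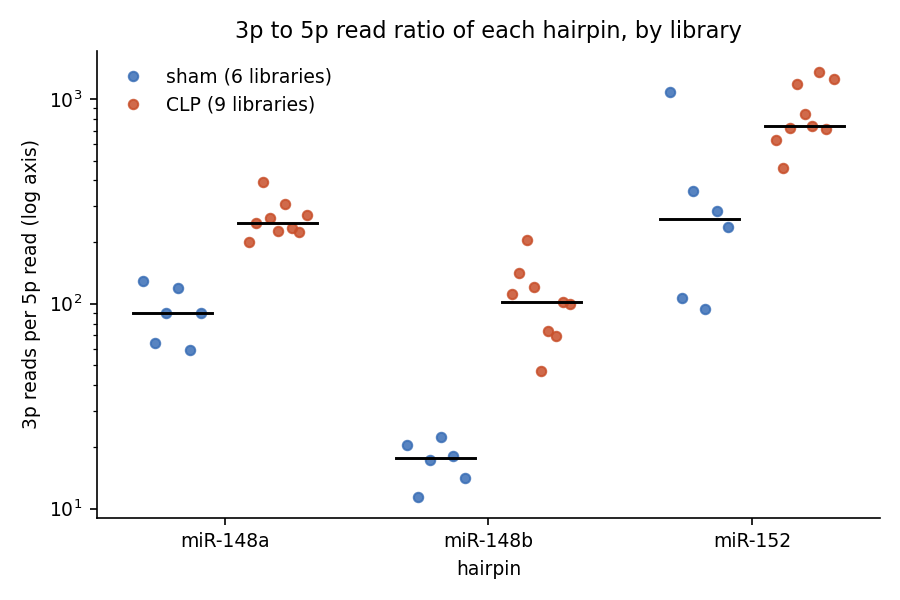
Reads of the 3p arm per read of the 5p arm in each library on a log axis, for the miR-148a, miR-148b and miR-152 hairpins, with group medians as black lines. CLP libraries lie above all sham libraries for miR-148a and miR-148b, and 3 of 9 do so for miR-152.

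The make-up of the 3p reads also differed. miR-148a-3p took between 61.1% and 66.1% of the 3p reads in sham and between 67.6% and 77.4% in CLP, without overlap. miR-152-3p took between 27.7% and 35.0% in sham and between 18.6% and 28.1% in CLP, and 8 of 9 CLP libraries were below every sham library. miR-148b-3p took between 3.87% and 8.47% in sham and between 3.52% and 5.22% in CLP, with wide overlap. Put as a ratio, there were 2.05 ± 0.21 reads of miR-148a-3p per read of miR-152-3p in sham (SD, n = 6) and 3.20 ± 0.60 in CLP (n = 9). Counting error is small beside these ranges, since the smallest count of a 3p member in a library was 481. The shares were not adjusted for base composition, in which miR-148a-3p (40.9% G and C) and miR-152-3p (47.6%) differ. With the GC trend removed, their log2 fold changes lay closer together, at 1.44 and 1.07, against 1.79 and 1.12 in the main fit. Shares within other families were not computed, so how common such a lack of overlap is was not tested. The 5 members summed to between 1874 and 2420 CPM in sham and to between 3731 and 10893 in CLP.

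**Figure D4:**
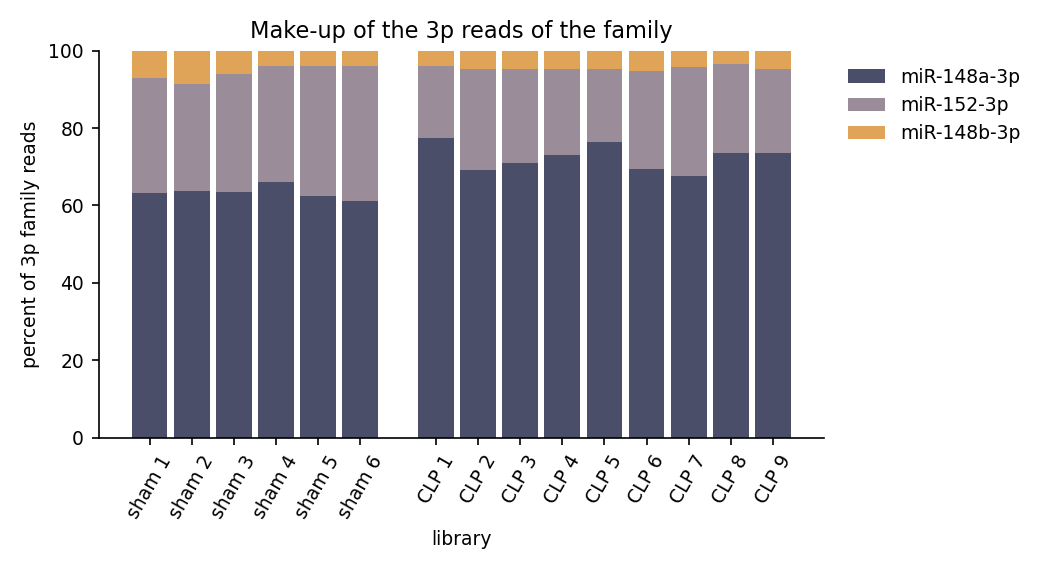
Percent of the family's 3p reads taken by miR-148a-3p, miR-152-3p and miR-148b-3p in each library, stacked to 100. The miR-148a-3p segment is 61.1% to 66.1% in sham and 67.6% to 77.4% in CLP.

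Within each group, levels of the members were ordered. The order by sham median was miR-148a-3p, miR-152-3p, miR-148b-3p, miR-148a-5p and miR-148b-5p, and the 4 neighbouring pairs kept this order in all 6 sham and all 9 CLP libraries. Since the sham medians set the order, its sham values are a description, and the test is that in CLP. The CLP-against-sham values of the members were known when they were chosen. With the sham order, those values largely fix the order in CLP, so no conclusion is drawn from that test. Mature strands are of similar length, but adapter ligation favours some end sequences, so the order is one of reads. In sham, miR-148a-3p exceeded miR-152-3p by 1.03 ± 0.15 on the log2 scale (SD, n = 6) and in CLP by 1.66 ± 0.27 (n = 9). miR-152-3p exceeded miR-148b-3p by 2.56 ± 0.60 in sham and 2.36 ± 0.23 in CLP. miR-148b-3p exceeded miR-148a-5p by 2.86 ± 0.65 and 3.98 ± 0.44, and miR-148a-5p exceeded miR-148b-5p by 1.17 ± 0.70 and 2.55 ± 0.62. All 4 CLP comparisons passed (exact two-sided paired permutation, p = 0.00391, the smallest that 512 sign changes can give, adjusted p = 0.00781 over the 8 of both groups).

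Among the CLP libraries, 4 of 5 relations between members passed after adjustment. Across the 9 CLP libraries miR-148a-3p and miR-148b-3p had Pearson r = 0.91 (exact permutation p = 0.000427, adjusted over 10 relations 0.00214) and Spearman rho = 0.87 (exact p = 0.00451, adjusted 0.0113). For miR-148a-3p and miR-152-3p r was 0.85 (exact permutation p = 0.00443, adjusted 0.0111) and rho 0.93 (exact p = 0.000750, adjusted 0.00250). For miR-148b-3p and miR-152-3p r was 0.87 (exact permutation p = 0.000132, adjusted 0.00132) and rho 0.97 (exact p = 0.000165, adjusted 0.00165). CLP 1 was the highest library for all 3, and CLP 5 and CLP 7 were the lowest 2. Without the 2 libraries farthest from the median of the first member, the 3 values of r were 0.85, 0.88 and 0.94. Those left out were CLP 1 and CLP 7 for the relations of miR-148a-3p, and CLP 1 and CLP 5 for that of miR-148b-3p with miR-152-3p. These CPM values share a denominator within each library. Among 248 other miRNAs averaging 10 CPM or more, the median r with miR-148a-3p in CLP was -0.01, and miR-148b-3p had the highest r. In that order miR-148a-5p came in place 3 and miR-152-3p in place 6. By r with miR-148b-3p in CLP, miR-148a-3p came in place 4 and miR-152-3p in place 8. Some miRNAs outside the family thus varied as closely with these members as their relatives did.

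The arms of a hairpin are cut from 1 precursor. In CLP miR-148a-3p and miR-148a-5p had r = 0.90 (exact permutation p = 0.00138, adjusted 0.00459) and rho = 0.93 (exact p = 0.000750, adjusted 0.00250), and r was 0.76 without CLP 1 and CLP 7. Without CLP 1 alone r was 0.78 and no longer passed (exact permutation, adjusted p = 0.0514). miR-148b-3p and miR-148b-5p had r = 0.33 (exact permutation p = 0.386, adjusted 0.482) and rho = 0.35 (exact p = 0.359, adjusted 0.448) in CLP, and r = 0.48 without CLP 1 and CLP 5. The difference between these relations was not tested.

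In sham 1 of 5 relations passed. miR-148b-3p and miR-148b-5p had r = 0.88 (exact permutation p = 0.0139, adjusted 0.0278), although rho = 0.89 did not pass after adjustment (exact p = 0.0333, adjusted 0.0667). It was 0.86 without sham 1 and sham 2. The call was lost with library size scaling (r = 0.85, exact permutation adjusted p = 0.0861) and without sham 2, 3, 4 or 6 (r of 0.86, 0.88, 0.84 and 0.91, adjusted p of 0.183, 0.139, 0.0667 and 0.0667). For miR-148a-3p and miR-152-3p r was 0.80 (exact permutation p = 0.0389, adjusted 0.0648) and rho 0.77 (exact p = 0.103, adjusted 0.171). That relation rested on sham 2 and sham 6, without which r was 0.06. For miR-148a-3p and miR-148b-3p r was -0.11 (exact permutation p = 0.826, adjusted 0.826; rho = 0.09), and for miR-148b-3p and miR-152-3p -0.42 (exact permutation p = 0.475, adjusted 0.528; rho = -0.03). miR-148a-3p and miR-148a-5p had r = -0.64 (exact permutation p = 0.183, adjusted 0.262; rho = -0.60) in sham. Whether relations differ between sham and CLP was not tested.

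**Figure D5:**
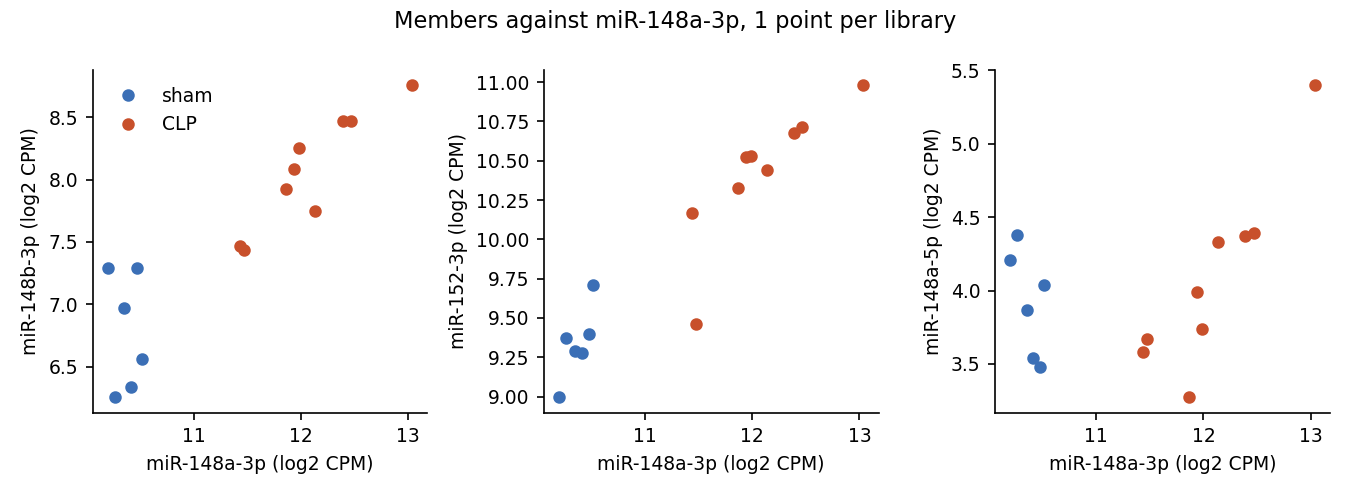
log2 CPM of miR-148b-3p, miR-152-3p and miR-148a-5p against that of miR-148a-3p, with 1 point per library, sham in blue and CLP in orange. Within the 9 CLP libraries r is 0.91, 0.85 and 0.90, and CLP 1 is the point at the upper right.

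Each 3p member was also set against 5 marker miRNAs. These were miR-122-5p of hepatocytes, miR-217-5p of pancreatic acinar cells and miR-451a of red cells. The others were miR-223-3p of myeloid cells and platelets, and miR-143-3p of smooth muscle and fibroblasts. By Pearson r, 0 of 30 relations passed after adjustment and 5 had an unadjusted exact permutation p under 0.05. By Spearman rho 3 passed, those of the 3p members with miR-223-3p in CLP. The 3p members varied together in CLP, so these are not 3 separate results. miR-223-3p itself was at 290 ± 36.8 CPM in sham (SD, n = 6) and at 371 ± 120 in CLP (n = 9). It was not called between the groups (log2 fold change 0.36 ± 0.21, SE). For miR-148b-3p and miR-223-3p r was 0.86 (exact permutation p = 0.00385, adjusted 0.0577) and rho 0.92 (exact p = 0.00131, adjusted 0.0304), with r = 0.76 without CLP 1 and CLP 4. For miR-148a-3p it was r = 0.79 (exact permutation p = 0.00971, adjusted 0.0971) and rho = 0.87 (exact p = 0.00451, adjusted 0.0451). For miR-152-3p it was r = 0.71 (exact permutation p = 0.0185, adjusted 0.111) and rho = 0.90 (exact p = 0.00203, adjusted 0.0304). Without CLP 1 and CLP 4 these values of r were 0.59 and 0.60. By Pearson r, the relations of miR-148a-3p and miR-148b-3p with miR-223-3p passed without CLP 6 (r = 0.85 and 0.86, exact permutation, adjusted p = 0.0342 for both). They also passed without CLP 9 (r = 0.82 and 0.91, exact permutation, adjusted p = 0.0486 and 0.0335). In sham none of the relations with miR-223-3p passed. There r was -0.39 for miR-148a-3p (rho = -0.26), 0.54 for miR-148b-3p (rho = 0.43) and -0.34 for miR-152-3p (rho = 0.20).

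The pancreatic miR-217-5p was at 13.02 ± 3.43 CPM in sham (SD, n = 6) and at 154 ± 156 in CLP (n = 9), highest in CLP 6 and lowest in CLP 5. The other tested pancreas miRNAs were not called. Their log2 fold changes were -0.35 ± 0.69 (SE) for miR-216a-5p, -0.42 ± 0.94 for miR-216b-5p and 0.67 ± 0.36 for miR-375-3p. miR-217-5p and miR-148a-3p had r = 0.25 in CLP (exact permutation p = 0.520, adjusted 0.625; rho = 0.38), and 0.87 without CLP 1 (exact permutation, adjusted p = 0.0412). For miR-152-3p the r with miR-217-5p was 0.44 (exact permutation p = 0.250, adjusted 0.622; rho = 0.45), and 0.82 without CLP 1 (exact permutation, adjusted p = 0.0253). For miR-122-5p and miR-148a-3p in CLP r was 0.56 (exact permutation p = 0.115, adjusted 0.344; rho = 0.38), and 0.12 without CLP 1 and CLP 6. In sham, the relation of miR-148b-3p with the red cell miR-451a did not pass after adjustment (r = 0.96, exact permutation p = 0.0139, adjusted 0.104; rho = 0.89), and r was 0.98 without sham 2 and sham 4. Nor did that with miR-122-5p (r = -0.86, exact permutation p = 0.00278, adjusted 0.0577; rho = -0.94). With the same 6 sham libraries, the adjusted p of that relation was 0.0412, 0.0342 and 0.0417 (exact permutation) when CLP 1, CLP 6 or CLP 9 was left out of the family of 30. Over all 9 CLP libraries miR-148b-3p had r = -0.30 with miR-451a (rho = -0.13) and r = 0.29 with miR-122-5p (rho = 0.08). These signs, opposite to those in sham, rested on few libraries. Without CLP 4 and CLP 5 the r with miR-451a was 0.56, and without CLP 1 and CLP 6 that with miR-122-5p was -0.08. No reversal between the groups is read from these values. The part of any of these sources in the differences between the groups was not tested.

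Of the same 248 miRNAs, the 5 whose deviations from their group means were most like those of miR-148a-3p over the 15 libraries included 2 relatives. miR-152-3p came first (r = 0.83) and miR-148a-5p came in place 4 (r = 0.75). The others were the myeloid miR-223-5p (r = 0.79), miR-340-5p (r = 0.78) and miR-450b-5p (r = 0.75), and miR-148b-3p came in place 13 (r = 0.69). Within CLP alone r was 0.83 for miR-223-5p, 0.83 for miR-340-5p and 0.90 for miR-450b-5p. Within sham it was -0.24, -0.56 and 0.21, and for miR-148a-5p it was negative too, as given above. These values are descriptions over libraries that share their scaling.

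Other lists are given as a description, beside 25.4% called higher, 21.8% called lower and a median log2 fold change of 0.11 over all tested miRNAs. With so few members in each, nothing is read from shares near those. Of 6 hepatocyte miRNAs 2 were called higher and none lower (median log2 fold change 0.93), with the abundant miR-122-5p (1.39 ± 0.76, SE) and miR-192-5p (0.55 ± 0.29) not called. Of 4 tested pancreas miRNAs only miR-217-5p was called, higher. Of 9 miRNAs from introns of other widely expressed genes 5 were called higher and 1 lower, among them miR-25-3p at 1.17 ± 0.27 and miR-26a-5p at -0.83 ± 0.20. Both tested miRNAs with the shifted seed, miR-130a-3p (1.99 ± 0.23) and miR-130b-3p (1.13 ± 0.24), were called higher. Of 5 red cell entries 1 was called lower, of 5 platelet and myeloid miRNAs 1 was called higher, and of 5 smooth muscle and fibroblast entries 1 was called higher and 3 lower. Of 4 lymphocyte miRNAs 2 were called higher and 2 lower.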

How the data were processed

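Small RNA libraries were made from plasma RNA by adapter ligation at both ends and gel selection, per the labels' protocols. The authors deposited 1 table of expected counts per mature miRNA, not scaled for depth; its name gives exceRpt as the source, and per the submitters' processing notes the genome build is mm10. For the aligner, read trimming and miRNA release, details are not given in the sources used here. Counts were rounded, kept by filterByExpr, scaled by TMM and compared with edgeR 4.0.16 (R 4.3.3) by a robust quasi-likelihood F test without covariates, adjusted by Benjamini-Hochberg over 426 miRNAs at 0.05. Standard errors were the size of the log2 fold change over the square root of F. Within groups, log2 CPM (prior count 2) was tested by exact two-sided permutation. Alternatives used limma 3.58.1 voom, DESeq2 1.42.0, other scalings and filters, a GC trend from mature sequences (known for 87.6% of tested miRNAs), a replicate block and leaving out libraries. The main edgeR fit was tested on simulated data. Members and lists were chosen with earlier results of these data known. Named beside the members were the 5 marker miRNAs, entries sharing a seed, the 5 miRNAs most like miR-148a-3p, and up to 2 of each list by abundance. The remaining tested pancreas miRNAs were named as well. Positions came from GENCODE M21 and RefSeq on GRCm38, which is mm10. No 2 libraries of a group were copies (lowest chi-square per degree of freedom 288).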

Additional observations from a re-analysis of the deposited data

How the results depend on the processing

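The log2 fold changes of miR-148a-3p, miR-148b-3p and miR-152-3p kept their direction and call under all 26 alternatives, at 1.37 to 1.79, 0.96 to 1.38 and 0.90 to 1.14. That of miR-148b-5p lay between -1.62 and -1.06 under 25 and lost its call under 1, a fit with the replicate block on 12 libraries (-1.30). It was not tested with a mean of at least 10 CPM. That of miR-148a-5p, never called, lay between -0.06 and 0.38 and turned negative without CLP 1 (-0.033) and with the GC trend removed together with the replicate block (-0.0573). Over all miRNAs, 108 were called higher and 93 lower. In the 12 libraries numbered 1 to 6, 87 were higher without the replicate block, 71 with the replicate block and 70 with the block and the GC trend removed. Over all libraries, 69 were higher with a mean of at least 10 CPM (249 miRNAs tested), and with no filter 167 were lower (1182 tested). Leaving out 1 library gave 95 to 104 higher and 82 to 110 lower. Same-numbered sham and CLP libraries did not deviate together (correlations from -0.15 to -0.03). The labels give no pairing, and these correlations alone cannot exclude one. The 8 level comparisons, of which the 4 in sham restate the order of the sham medians, all passed with library size scaling and with a prior count of 0.5; without 1 sham library 4 passed and with 1 CLP library left out 8, since 5 libraries allow no p below 0.0625. Of the relations among members, between 4 and 5 of 10 passed on leaving out 1 library. The relation of miR-148a-3p with miR-148b-3p in sham turned to 0.13 with library size scaling, 0.40 without sham 2 and 0.03 without sham 6, and was between -0.47 and 0.40 on leaving out 1 sham library; the cause was not tested. Of 30 relations with markers, between 0 and 3 passed on leaving out 1 library: 3 without CLP 1 and 3 each without CLP 6 and CLP 9. The changes in log2 3p to 5p ratio with 5 counts added were 1.56 for miR-148a and 2.41 for miR-148b. Depth limits miR-148b-5p and miR-152-5p most.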
